A study of Mus musculus with 6 samples.

Results

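Lipid-associated macrophage genes were followed in tumor-associated macrophages (TAMs) of WT and C5aR-/- mice through 9 genes: Trem2, Tyrobp, Apoe, Lpl, Fabp4, Fabp5, Plin2, Gpnmb and Cd9. The members were the rows of the gene expression matrix whose Ensembl mouse ID maps to those symbols, 9 of 56980 genes in the matrix. C5aR is the receptor for complement fragment C5a, and the question of the study was how its loss alters TAM function and gene expression. ID8 cells, a mouse epithelial ovarian cancer line, had been injected intraperitoneally into female mice of 6 to 8 weeks on the C57BL/6 background, either WT or carrying the C5aR knockout, which affects every cell type of the mouse and not macrophages alone. Abdominal tumors were taken 2 months later, and live CD45+CD11b+Ly6G-F4/80+ cells were sorted for poly(A) RNA-seq, with 3 libraries per genotype and no other treatment in either group. Expression values are TPM, transcript abundances scaled for transcript length to the same total in every library, which keep no sequencing depth, so the depth behind each value is unknown.

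Macrophages that take up lipid from dying cells or lipoproteins adopt a shared expression program known from adipose tissue, atherosclerotic plaque, brain and tumors. Its surface receptor TREM2 binds lipids and lipoproteins and signals through the adaptor DAP12, encoded by Tyrobp. Around this receptor stand a secreted lipid carrier (Apoe), an enzyme that frees fatty acids from triglyceride (Lpl), cytosolic fatty acid chaperones (Fabp4 and Fabp5), a lipid droplet coat protein (Plin2) and membrane proteins commonly used as markers of the state (Gpnmb and Cd9).

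The knockout was visible in its target. C5ar1 stood at 86.5, 37.3 and 16.2 TPM in the WT libraries and at 0.38, 0.11 and 0.05 TPM in the C5aR-/- libraries. The groups did not overlap, with a log2 difference of -5.04 (SE 0.56) and an adjusted p of 0.0666 in limma.

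The libraries of a genotype differed widely in macrophage transcripts, and most members varied with them. The macrophage index, defined as the mean log2(TPM + 1) of 10 macrophage markers (Adgre1, Csf1r, Itgam, Fcgr1, Mertk, C1qa, C1qb, C1qc, Lyz2 and Cd14), was 8.12, 6.86 and 6.47 in WT replicates 1 to 3 and 8.26, 7.48 and 6.63 in C5aR-/- replicates 1 to 3. The genotypes overlapped on it, with a difference of 0.31 and an exact permutation p of 0.7 (two-sided, 20 splits, smallest possible p 0.1). Replicate 1 held the highest value of its genotype for 10 of 10 markers and for 8 of 9 members, in WT and in C5aR-/- alike. In such bulk samples fewer macrophages and less RNA per macrophage cannot be told apart. Markers of other cells were present despite the gate: summed neutrophil markers ran from 628 to 2310 TPM in WT and from 31 to 389 TPM in C5aR-/- libraries, summed mesothelial markers from 1210 to 1596 and from 776 to 1105 TPM, and summed epithelial markers from 1843 to 2039 and from 1669 to 2211 TPM. Summed mast cell markers ran from 85.2 to 141 and from 59.7 to 87.8 TPM, and summed B cell markers from 84.3 to 496 and from 32.8 to 443 TPM. The mast cell sum hides opposite directions, as Kit averaged 30.6 TPM in WT and 69.3 TPM in C5aR-/- libraries. The other 5 tested mast cell markers were lower in C5aR-/- libraries without overlap. Among them Cpa3 averaged 19.2 TPM in WT and 0.72 TPM in C5aR-/- libraries. Summed erythroid markers ran from 236 to 4297 TPM in WT libraries and were at 17919, 230 and 786 TPM in C5aR-/- libraries, so that C5aR-/- replicate 1 stood apart. Their part in the results on the members was not tested.

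Each member was first compared between genotypes with limma on log2(TPM + 1), a scale that understates the change of low genes, across 14776 genes with at least 1 TPM in at least 3 libraries. All 9 members passed that filter. At an adjusted p under 0.05 (Benjamini-Hochberg) with a fold of at least 2, 0 of 9 members and 0.0% of all tested genes were called, while 2133 tested genes had an unadjusted p under 0.05. At the unadjusted p under 0.05 with the same fold, 1 member was higher in C5aR-/- TAMs, against a background of 2.13% of tested genes, and 0 were lower, against 2.84%. The values of the 3 libraries did not overlap between genotypes in 2 members, both higher in C5aR-/- TAMs, where 8.84% of tested genes were higher without overlap and 12.5% were lower without overlap. The median log2 difference of the members was -0.12, beside -0.05 over all tested genes. The labels name the libraries as separate samples without tying each to a mouse, so the p-values measure the spread between these samples. The study describes more mice per group for this RNA-seq than there are libraries per genotype analysed here.

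**Figure D1:**
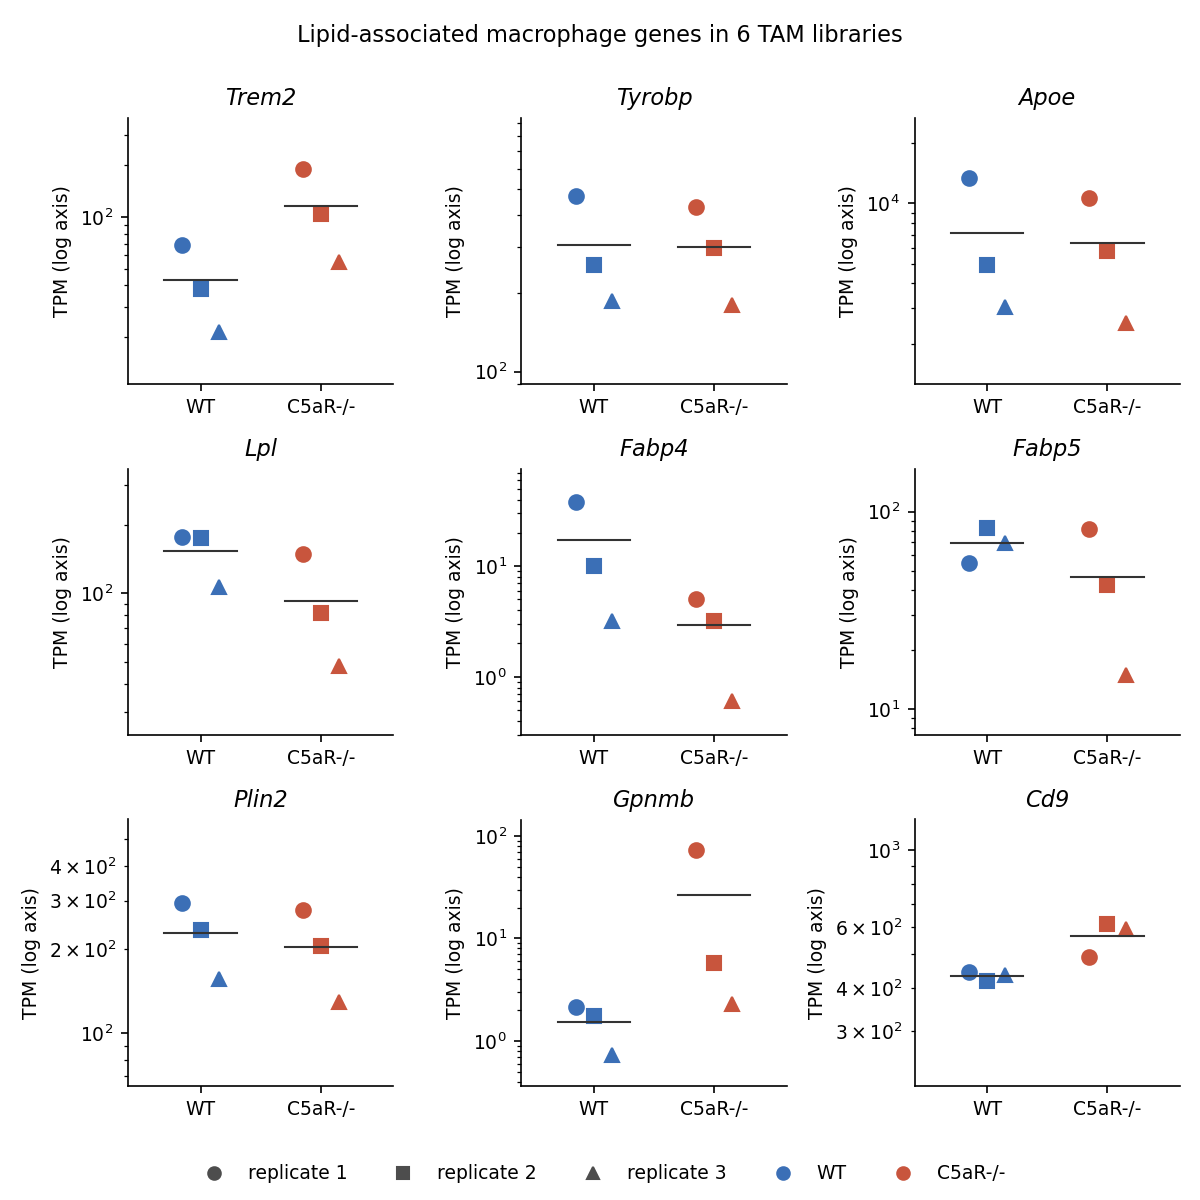
TPM of each of the 9 members (log axis) in the 3 WT and 3 C5aR-/- TAM libraries, with symbols for the replicate number and a line at the group mean. Replicate 1 is the highest library of its genotype for 8 of 9 members, and only Gpnmb and Cd9 have genotypes that do not overlap.

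Trem2 was the member past the unadjusted threshold. It stood at 69.1, 38.2 and 21.4 TPM in WT libraries and at 189, 104 and 54.5 TPM in C5aR-/- libraries. Each C5aR-/- library exceeded the WT library of the same rank, yet the genotypes overlapped, since C5aR-/- replicate 3 lay below WT replicate 1. The difference was 2.62-fold, or 1.39 on the log2 scale (SE 0.55, 95% interval 0.08 to 2.70), with an unadjusted p of 0.0409 and an adjusted p of 0.326 in limma. Trem2 kept the unadjusted call when WT replicate 1 (1.81) or C5aR-/- replicate 3 (1.84) was left out, and lost it without WT replicate 2 (1.39), WT replicate 3 (0.98), C5aR-/- replicate 1 (0.95) or C5aR-/- replicate 2 (1.38).

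Tyrobp encodes DAP12, through which TREM2 and several related receptors signal. Its level was 472, 257 and 187 TPM in WT libraries and 427, 297 and 180 TPM in C5aR-/- libraries, and the genotypes overlapped throughout. The log2 difference was 0.00 (SE 0.42, 95% interval -1.01 to 1.01). Receptor and adaptor varied together between the libraries of a genotype, and within each genotype the ratio of Trem2 to Tyrobp was steadier than either gene. Trem2 amounted to 14.6%, 14.8% and 11.5% of the Tyrobp level in WT libraries and to 44.4%, 35.1% and 30.3% in C5aR-/- libraries. These values did not overlap between genotypes and differed 2.67-fold, 1.41 on the log2 scale, with an exact permutation p of 0.1, the smallest that 3 against 3 libraries can give. Leaving out any 1 library kept the log2 difference of this ratio between 1.27 and 1.54. The ratio was chosen after the values had been seen, and the share of all tested genes that separate against Tyrobp was not computed.

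**Figure D2:**
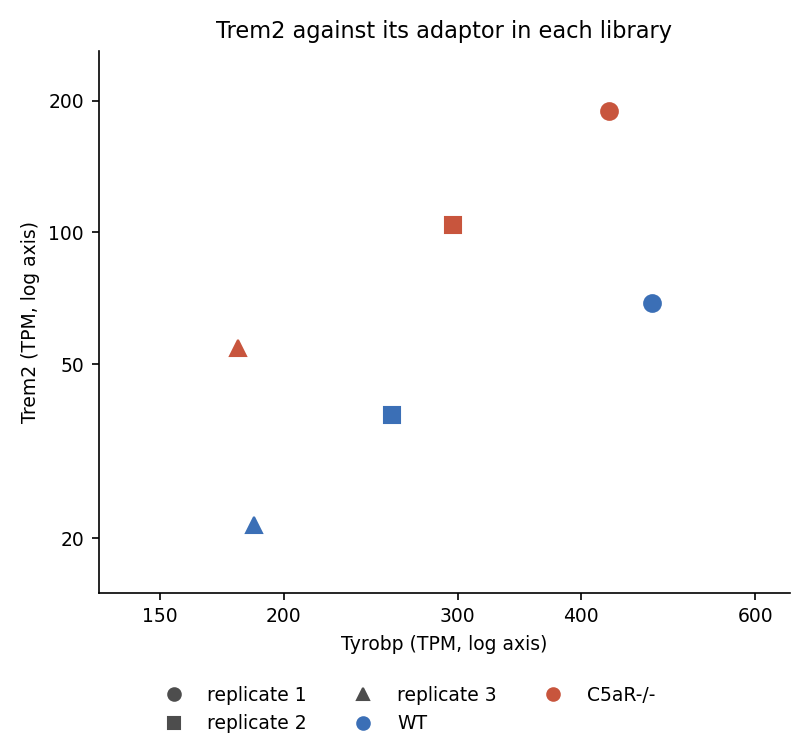
Trem2 against Tyrobp in TPM (both log axes) in the 6 libraries, with colors for genotype and symbols for replicate number. Every C5aR-/- library has more Trem2 per Tyrobp than every WT library, from 30.3% to 44.4% of Tyrobp against 11.5% to 14.8%.

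Trem2 lies at chr17:48346401-48354147 on the plus strand (GRCm38, GENCODE M21) within a cluster of related receptor genes. Of these neighbors, Treml4, a receptor of the same family, was at 1.47, 2.27 and 3.76 TPM in WT and at 11.7, 11.2 and 8.43 TPM in C5aR-/- libraries. It was higher in C5aR-/- TAMs without overlap, with a log2 difference of 1.75 and an adjusted p of 0.093. Trem1 (-0.54), Trem3 (-0.64) and Treml2 (0.38) overlapped between genotypes, so the genes of the cluster did not share a direction. RefSeq promoters (GRCm38.p6), covering 250 bases before to 50 after the start, were found for 5 of 9 members, namely Trem2, Apoe, Plin2, Gpnmb and Cd9. They were searched on both strands for 5 motifs, each beside its share among all 32851 promoters of the table. The E-box CACGTG, which MiT factors can bind, occurred in 7.15% of them. The hypoxia response element core ACGTG, which every such E-box contains, occurred in 19.6%. The PU.1 core GAGGAA, a motif of myeloid genes, was held by 28.3% of promoters. The nuclear receptor half-site AGGTCA, used by lipid-sensing receptors, was held by 16.3%. The TATA box, searched as TATAAA, was held by 13.6%. The promoters of Trem2 and Gpnmb are shown because their levels relative to macrophage markers were higher in C5aR-/- than in WT TAMs without overlap, and that of Plin2 because its genotypes overlapped. Capitals mark the motif matches: 1 nuclear receptor half-site and 1 PU.1 core in Trem2, 0 in Gpnmb, and 1 half-site and 1 E-box in Plin2. The positions are chr17:48346151-48346450 (plus strand), chr6:49036268-49036567 (plus strand) and chr4:86670010-86670309 (minus strand).
Trem2: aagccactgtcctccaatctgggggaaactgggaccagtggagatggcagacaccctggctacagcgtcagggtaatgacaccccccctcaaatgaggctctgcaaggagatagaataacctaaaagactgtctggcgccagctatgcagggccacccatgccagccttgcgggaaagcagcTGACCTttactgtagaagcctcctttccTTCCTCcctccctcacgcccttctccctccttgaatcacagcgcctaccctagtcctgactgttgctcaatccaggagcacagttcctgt
Gpnmb: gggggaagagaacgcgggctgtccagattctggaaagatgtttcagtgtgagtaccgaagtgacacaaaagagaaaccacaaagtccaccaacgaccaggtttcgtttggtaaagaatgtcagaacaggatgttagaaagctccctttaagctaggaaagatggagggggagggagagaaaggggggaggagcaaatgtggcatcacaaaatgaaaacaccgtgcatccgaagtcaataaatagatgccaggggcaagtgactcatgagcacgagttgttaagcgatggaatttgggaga
Plin2: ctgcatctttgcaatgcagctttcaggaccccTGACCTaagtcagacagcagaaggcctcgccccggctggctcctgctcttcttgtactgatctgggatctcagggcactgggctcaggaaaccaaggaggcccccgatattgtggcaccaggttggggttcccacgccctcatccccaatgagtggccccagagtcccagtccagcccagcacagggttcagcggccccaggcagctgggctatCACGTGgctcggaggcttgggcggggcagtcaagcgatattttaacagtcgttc
A match is a run of letters in this window and says nothing of binding in these cells.

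Apoe, the lipid carrier that also serves as a TREM2 ligand, was the most abundant member. It stood at 13376, 4945 and 3040 TPM in WT libraries and at 10691, 5816 and 2535 TPM in C5aR-/- libraries, between the 4th and the 49th most abundant gene of a library. The values overlapped and followed replicate number, 4.4-fold from the highest to the lowest WT library and 4.22-fold in C5aR-/- libraries. The log2 difference between genotypes was -0.12 (SE 0.70, 95% interval -1.79 to 1.56). Leaving out WT replicate 1 turned its sign to 0.48, and leaving out C5aR-/- replicate 3 to 0.43.

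Lpl and the fatty acid binding proteins lay lower on average in C5aR-/- libraries without passing the unadjusted threshold when genotype alone was fitted to all 6 libraries. Lpl, lipoprotein lipase, was at 177, 175 and 107 TPM in WT and at 149, 82.0 and 47.7 TPM in C5aR-/- libraries. The genotypes overlapped, with a log2 difference of -0.83 (SE 0.42, 95% interval -1.83 to 0.17, unadjusted p 0.0902 in limma), which became -0.43 without C5aR-/- replicate 3 and -1.24 without C5aR-/- replicate 1. Fabp4, a fatty acid chaperone of adipocytes and macrophages, was at 38.1, 10.02 and 3.19 TPM in WT and at 5.01, 3.18 and 0.60 TPM in C5aR-/- libraries. Its log2 difference was -1.83 (SE 0.86, 95% interval -3.89 to 0.23, unadjusted p 0.0731 in limma), and -0.99 without WT replicate 1, its highest library. Fabp5, the chaperone of epidermis and macrophages, was at 55.0, 82.6 and 69.4 TPM in WT and at 81.6, 42.6 and 14.8 TPM in C5aR-/- libraries. In Fabp5 the widest gap lay within C5aR-/- libraries, 5.51-fold from highest to lowest, and the log2 difference of -0.84 (SE 0.56, 95% interval -2.19 to 0.50) shrank to -0.20 without C5aR-/- replicate 3. Fabp5 shares 33.1% of its 31-base words with 5 other genes, none of them above 0.54 TPM.

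Adipocytes and endothelial cells also express Fabp4, and adipocytes Lpl. Of 8 adipocyte markers 0 passed the filter, Pck1 was at 0 in all libraries and Adipoq at 0 in all but 1 (0.07 TPM). Their sum ran from 0.65 to 1.20 TPM in WT and from 0.18 to 1.29 TPM in C5aR-/- libraries. Of 7 endothelial markers 4 passed the filter, with sums from 13.5 to 18.9 TPM in WT and from 11.9 to 28.8 TPM in C5aR-/- libraries. Pecam1 ran from 6.84 to 12.5 TPM over the 6 libraries, Tek reached 14.3 TPM (C5aR-/- replicate 1), Kdr 5.49 TPM and Vwf 2.43 TPM, while Cldn5 was at 0 throughout and Cdh5 did not exceed 0.21 TPM. The part of endothelial cells in the results on Fabp4 and Lpl was not tested.

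Plin2, the droplet coat protein found in most lipid-laden cells, overlapped between genotypes. It stood at 294, 236 and 156 TPM in WT and at 276, 205 and 129 TPM in C5aR-/- libraries. The libraries stood in the same order of replicate number in both groups, with a log2 difference of -0.19 (SE 0.34, 95% interval -0.99 to 0.62). The ratio of Lpl to Plin2 was 60.3%, 74.3% and 68.5% in WT libraries and 53.7%, 39.9% and 37.0% in C5aR-/- libraries. It was lower without overlap (exact permutation p 0.1, the smallest possible). This ratio was not planned, and the share of all tested genes that separate against Plin2 was not computed. Some other ratios overlapped between genotypes, such as Fabp4 to Fabp5 and Tyrobp to Csf1r. Others did not, such as Trem2 to Csf1r (higher) and Apoe to Csf1r (lower).

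Gpnmb and Cd9 were the members whose genotypes did not overlap. Gpnmb, a transmembrane glycoprotein of lysosome-rich macrophages, was at 2.14, 1.74 and 0.73 TPM in WT libraries and at 72.5, 5.76 and 2.29 TPM in C5aR-/- libraries. All C5aR-/- values were higher, but 1 library carried most of the difference. The log2 difference was 2.26 (SE 1.08, 95% interval -0.32 to 4.84, unadjusted p 0.0766 in limma), and 0.94 without C5aR-/- replicate 1, the library with the high erythroid markers. Cd9, a tetraspanin present on many cell types, was the steadiest member, at 444, 418 and 437 TPM in WT and at 490, 613 and 590 TPM in C5aR-/- libraries. It was 1.30-fold higher, 0.38 on the log2 scale (SE 0.14, 95% interval 0.04 to 0.71, unadjusted p 0.0317 and adjusted p 0.302 in limma), under the fold of 2. Cd9 did not follow the macrophage markers across libraries. Krt8, an epithelial keratin, was at 465, 455 and 460 TPM in WT and at 758, 624 and 743 TPM in C5aR-/- libraries, and Msln, a mesothelial marker that tumor cells can carry, at 145, 135 and 180 TPM and at 268, 284 and 288 TPM. Both were higher without overlap like Cd9, but each was the only such gene of its marker list. Of 6 tested epithelial markers 4 had a negative difference, and of 7 mesothelial markers 5 were lower without overlap. The part of such cells in the difference of Cd9 was not tested.

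**Figure D3:**
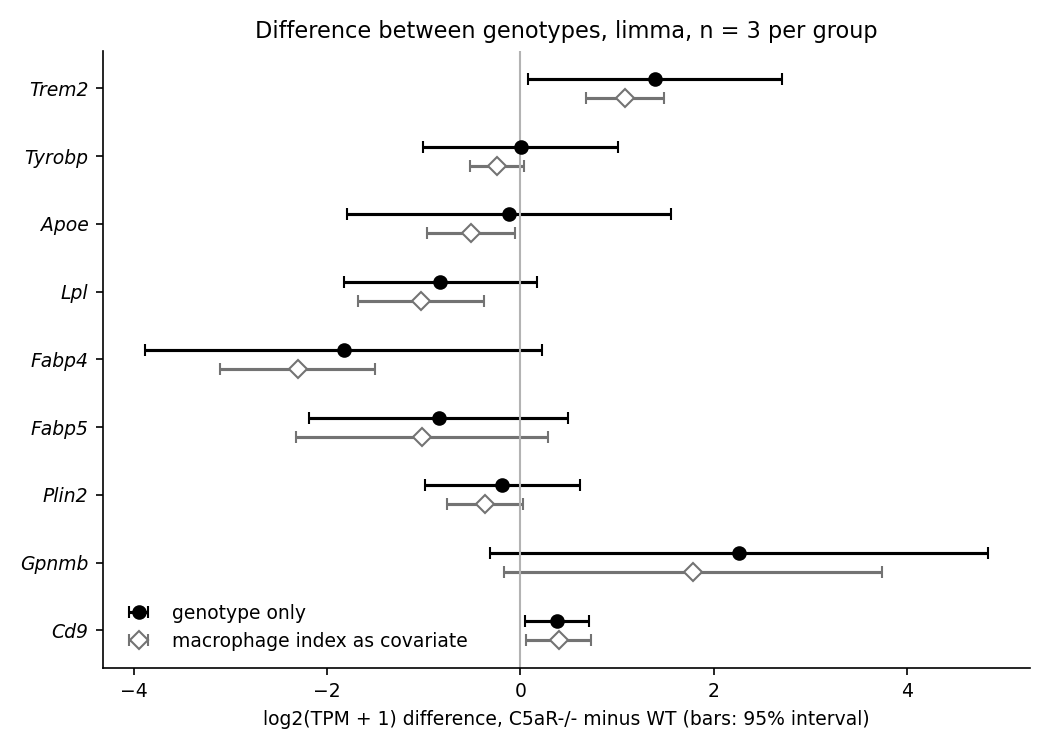
Log2(TPM + 1) difference between genotypes (C5aR-/- minus WT) for the 9 members, with 95% intervals from limma, fitted with genotype only (filled circles) and with the macrophage index as a covariate (open diamonds). With genotype only the intervals of Trem2 and Cd9 exclude 0, and with the covariate so do those of Trem2, Apoe, Lpl, Fabp4 and Cd9.

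Since most members followed the macrophage index across libraries, each was also set against the macrophage markers of its own library. Relative to the index, Trem2 stood at -1.98, -1.57 and -1.98 in WT libraries and at -0.69, -0.77 and -0.84 in C5aR-/- libraries on the log2 scale. Gpnmb was at -6.46, -5.40 and -5.68 against -2.06, -4.73 and -4.92. Both were higher in C5aR-/- TAMs without overlap, 2 of 9 members where 0.481% of tested genes were. Fabp4 was at -2.82, -3.40 and -4.40 in WT against -5.67, -5.42 and -5.96 in C5aR-/- libraries. Lpl was at -0.64, 0.60 and 0.28 against -1.04, -1.11 and -1.03. Both were lower without overlap, 2 of 9 members where 2.67% of tested genes were. The other 5 members overlapped. Before the subtraction 8.84% of all tested genes were higher and 12.5% lower without overlap. Separation on this scale was not particular to the members. Of 23 other tested genes of the lipid-associated state, listed below, 5 were higher and 0 lower without overlap. Of the 10 macrophage markers, which make up the index, 1 was higher and 2 were lower.

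**Figure D4:**
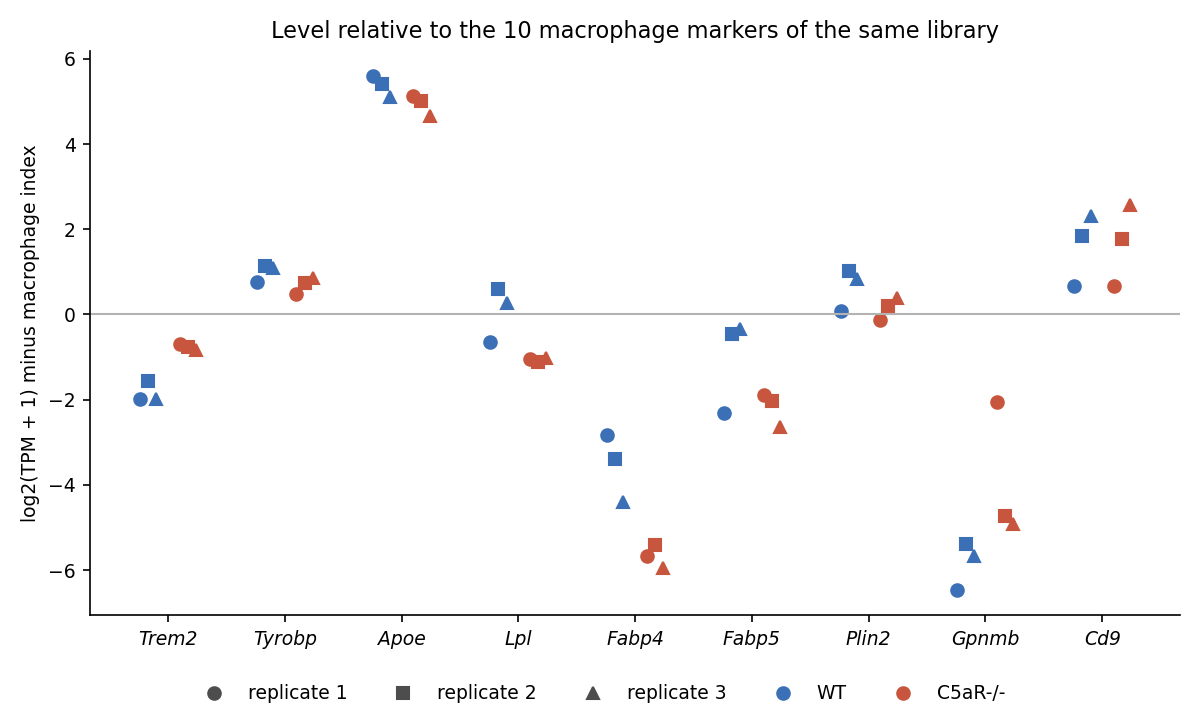
Log2(TPM + 1) of each member minus the macrophage index of the same library, for the 3 WT and 3 C5aR-/- libraries. Trem2 and Gpnmb lie higher and Lpl and Fabp4 lower in all C5aR-/- libraries, while the other members overlap.

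Single markers were tried in place of the index. Divided by each of the 10 markers in turn, Trem2 and Gpnmb were higher in C5aR-/- TAMs without overlap for 9 markers each, as were 0.359% of tested genes for at least 9. Fabp4 was lower for 10, as were 0.677% of tested genes. Lpl was lower for 6, and Tyrobp and Plin2 for 5 each, so that with Fabp4 4 of 9 members were lower for at least 5 markers, against 5.11% of tested genes. Apoe was lower for 3 and higher for 1, Fabp5 was lower for 1, and Cd9 overlapped for all 10. The cutoffs of 9, 10 and 5 markers were not planned and equal counts that members reached. The contrast with all tested genes is therefore a description and not a test.

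Tests of these relative levels depended on how the index entered. With the index as a covariate, 1 member was higher at the unadjusted threshold (background 2.76% of tested genes) and 2 were lower (background 3.51%). These were Trem2 (1.08, SE 0.16, adjusted p 0.0769), Fabp4 (-2.31, SE 0.33, adjusted p 0.0769) and Lpl (-1.03, SE 0.26, adjusted p 0.144), so 0 of 9 passed the adjusted threshold that 0.203% of tested genes passed. With the index subtracted from every gene before the limma fit, an alternative added after seeing the data, Trem2 did not pass (1.08, SE 0.80, unadjusted p 0.175), nor did Lpl (-1.14, unadjusted p 0.147). Gpnmb (1.95, unadjusted p 0.0291) was then the 1 member higher, against 0.298% of tested genes, and Fabp4 (-2.14, unadjusted p 0.0156) the 1 member lower, against 1.92%. All members had an adjusted p of 1.0 in that fit, in which 0.149% of tested genes passed the adjusted threshold. When 1 library was left out, the Gpnmb difference relative to the index ran from 1.03 to 2.45, lowest without C5aR-/- replicate 1. That of Trem2 ran from 1.01 to 1.22.

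The other genes of the pathway were counted by role at the same unadjusted threshold, which 2.13% of tested genes passed as higher and 2.84% as lower, with a median log2 difference of -0.05. Of 21 genes of TREM2 and DAP12 signaling and related receptors, all tested, 2 were higher and 0 lower at the unadjusted threshold, and the median log2 difference was 0.00. These were Treml4 and Siglece, an inhibitory sialic acid receptor (log2 difference 1.14, adjusted p 0.13), whereas the kinase Syk downstream of DAP12 overlapped (-0.17). Of 24 other genes of the lipid-associated state 23 were tested, with 5 higher, 0 lower and a median of 0.47. The 10 macrophage markers had a median of 0.47 as well, and with the macrophage index as a covariate the median of these 23 genes was 0.33. Spp1, which encodes osteopontin, was at 48.0, 48.3 and 49.6 TPM in WT and at 184, 226 and 344 TPM in C5aR-/- libraries (log2 difference 2.30, adjusted p 0.0666). Lgals3 (galectin-3, 1.56, adjusted p 0.0666), Mmp12 (macrophage elastase, 1.95, adjusted p 0.132) and Npl (a sialic acid lyase, 1.13, adjusted p 0.162) were the next by p, followed by Clec7a (a beta-glucan receptor, 1.06, adjusted p 0.328).

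Of 24 genes of lipid uptake and transport 15 were tested, with 1 higher, 2 lower and a median of 0.11. Apoc2, the cofactor of lipoprotein lipase, was at 119, 46.2 and 30.0 TPM in WT and at 1.51, 3.82 and 0.86 TPM in C5aR-/- libraries. It was lower without overlap, with a log2 difference of -4.31 (SE 0.56, adjusted p 0.0666). Fabp7, a brain-type fatty acid chaperone, was lower as well (-1.31, adjusted p 0.323), and Apoc4, a minor apolipoprotein, higher (1.57, adjusted p 0.31). Apoc2 shares 88.5% and Apoc4 17.5% of their 31-base words with an overlapping read-through gene, Gm44805, which did not exceed 5.58 TPM, so both values are uncertain. The scavenger receptor Cd36 overlapped (0.13).

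Of 26 lipid droplet genes 18 were tested, with 0 higher, 1 lower and a median of 0.07. The one was Soat1, which esterifies cholesterol for storage, at 255, 368 and 251 TPM in WT and at 130, 153 and 123 TPM in C5aR-/- libraries (-1.08, adjusted p 0.0948). Of 19 regulators 18 were tested, with 1 higher, 0 lower and a median of 0.14. Pparg, the fatty acid sensing nuclear receptor, was at 2.02, 2.54 and 1.18 TPM in WT and at 5, 4.81 and 13.4 TPM in C5aR-/- libraries (1.48, adjusted p 0.207). It was higher without overlap.

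**Figure D5:**
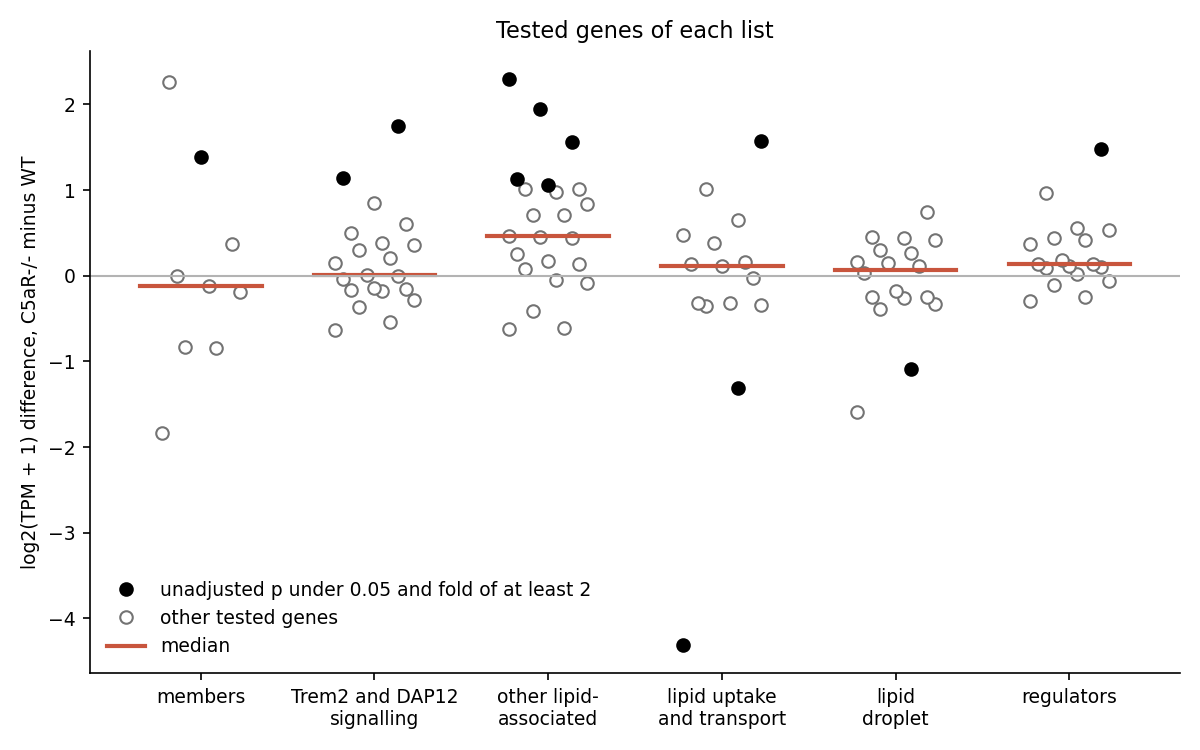
Log2(TPM + 1) difference (C5aR-/- minus WT) of every tested member and of every tested gene of 5 pathway lists, with filled points for an unadjusted p under 0.05 and a fold of at least 2 and a line at each median. The list medians lie between -0.12 and 0.47, and Apoc2 at -4.31 is the lowest point.

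The tested genes nearest to each member in pattern were found by the root mean square difference of centered log2(TPM + 1) over the 6 libraries. Apoe lay nearest to Lyz2 (0.04) and Smpdl3a (0.07), and Tyrobp to Hdac9 (0.08) and C3ar1 (0.10). Trem2 lay nearest to Tlr8 (0.14) and Adap2 (0.19). Tlr8 was at 15.5, 6.89 and 4.71 TPM in WT and at 44.7, 20.5 and 13.1 TPM in C5aR-/- libraries, the same order of libraries as Trem2. Lpl lay nearest to F3 (0.11) and Map3k8 (0.11), Fabp4 to Padi4 (0.22) and F5 (0.30), and Fabp5 to Sept1 (0.09) and Acap1 (0.13). Plin2 lay nearest to Map3k15 (0.06) and Cd40 (0.08), Cd9 to Smim13 (0.05) and Ptpmt1 (0.06). Gpnmb had the most distant neighbors, Slc40a1 (0.36) and Igha (0.56), which were also highest in C5aR-/- replicate 1, at 67.4 and 229 TPM. These distances depend on how much a member itself varies, so they do not rank closeness across members. The root mean square distance of a member from its own mean was 1.78 for Gpnmb and 0.21 for Cd9.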

How the data were processed

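TAMs sorted from ID8 tumors of WT and C5aR-/- mice gave 6 poly(A) RNA-seq libraries, grouped by their labels. The authors deposited gene TPM values, made with fastp, HISAT2 and StringTie per the methods (RSEM and DESeq2 are also named in the submitters' processing notes) on mm10. The methods name FPKM, whereas each deposited column sums to about 1000000, as TPM does. The versions were not given in the sources used here. The authors' group means were not used. TPM are not counts, so no count test was run.

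Genes with at least 1 TPM in at least 3 libraries were compared as log2(TPM + 1) with limma 3.58.1 (R 4.3.3, trended eBayes) and Benjamini-Hochberg adjustment over 14776 genes. Thresholds were p under 0.05 and a fold of at least 2. Ratios, none of them planned, used exact permutation tests. The fit was tested on simulated data. Named genes were the 9 members, C5ar1, at most 4 genes per pathway list past the unadjusted threshold, 2 nearest genes per member, and defining or absent markers. Syk, Cd36, Clec7a, Trem1, Trem3, Treml2, Krt8, Msln, Kit and Cpa3 were named after their values were seen. Members and lists were chosen with earlier results of these data known. No protein sequence was used here. Alternatives were another pseudocount, filter, scaling or variance model, a replicate block, the macrophage index as a covariate or subtracted, and leaving out each library.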

Additional observations from a re-analysis of the deposited data

How the results depend on the processing

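The depth behind the TPM values is unknown. No member passed the adjusted threshold in any of the alternatives run. Over all genes 0 passed it, against 2 with eBayes without trend, 30 with the macrophage index covariate, 22 relative to the macrophage index and 0 to 349 when 1 library was left out, the highest without C5aR-/- replicate 1. The unadjusted threshold was passed by 733 genes, by 475 at a TPM of at least 5, by 328 relative to the macrophage index and by 518 to 1220 when 1 library was left out. Among the members it was passed by 1, by 0 with no filter, by 3 with the covariate, by 2 relative to the index, and by 0 to 2 when 1 library was left out. The members that passed changed with the library: none without WT replicate 2 or C5aR-/- replicate 2, Fabp4 without WT replicate 3, Lpl and Fabp5 without C5aR-/- replicate 1, and Trem2 with Gpnmb without C5aR-/- replicate 3. The cause was not tested.

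The replicate block let 3 members pass the unadjusted threshold (Trem2 and Gpnmb higher, Fabp4 lower), and 811 genes in all. In that fit Trem2 had an unadjusted p of 0.000134 and an adjusted p of 0.105 in limma. Same-numbered libraries correlated at 0.186, -0.011 and 0.272 after centering by group. Differently numbered libraries correlated at -0.230 to 0.093. Whether the numbers mark pairs was not settled by these values. The labels name no pairing, so the numbers were not taken as pairs.

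The median of the members, -0.12, ranged from -0.44 to 0.37 when 1 library was left out and was positive without WT replicate 1 (0.37) or C5aR-/- replicate 3 (0.33). Tyrobp, at 0.00, became -0.24 with the covariate and -0.31 relative to the index, where the subtraction takes 0.31 off the difference of every gene by construction. With the covariate Apoe moved to -0.51 (unadjusted p 0.0331 in limma) and Plin2 to -0.36, and the median of the members to -0.36, or -0.43 relative to the index. When 1 library was left out Tyrobp ranged from -0.30 to 0.37, Apoe from -0.61 to 0.48 and Plin2 from -0.44 to 0.11, each crossing 0. The C5ar1 difference passed an adjusted p of 0.05 with the covariate (0.0471), relative to the index (2.06e-05) and without C5aR-/- replicate 1 (0.022), and the filter dropped C5ar1 when a WT library was left out.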

Other observations

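Apoe lies in a cluster with Apoc1, Apoc4 and Apoc2, which begins 3.42 Mb from C5ar1 on chromosome 7. Apoe itself lies 3.45 Mb and Tyrobp 14.17 Mb from that knocked-out gene. Apoc2 amounted to 0.886%, 0.935% and 0.986% of the Apoe level in WT libraries and to 0.0141%, 0.0657% and 0.0339% in C5aR-/- libraries. Apoc4 moved the other way, at 0.0514%, 0.0663% and 0.0276% of Apoe in WT and at 0.121%, 0.284% and 0.224% in C5aR-/- libraries. Neither ratio overlapped between genotypes (exact permutation p 0.1 each, the smallest possible), and the ratio of Apoc1 to Apoe did overlap. The share of all tested genes that separate against Apoe was not computed. Tomm40, on the other side of Apoe, was 0.36 higher on the log2 scale without overlap (adjusted p 0.306 in limma), and Relb (-0.08) and Clptm1 (-0.07) overlapped. Sequence carried along with the knockout and the lost receptor cannot be told apart with these groups, and the words that Apoc2 and Apoc4 share with Gm44805 leave both values uncertain.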
